A study of Mus musculus with 7 samples.

Results

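Notochord and nucleus pulposus identity genes are 10 genes by which cells of the disc core are recognised: the transcription factors Foxa1, Foxa2, Noto and Pax1, the cytokeratins Krt8, Krt18 and Krt19, the surface proteins Cd24a and Cdh2, and the membrane-associated protein Basp1. Members were chosen by gene symbol, and all 10 were found, each on 1 array feature, among 19505 genes. Their RNA was measured in nucleus pulposus, the soft centre of the intervertebral disc, of 7 mice on Affymetrix arrays, with 1 array per animal. The 4 wild-type (WT) animals were 13 months old, and the 3 MCT4KO animals were 14 months old and lacked MCT4, the lactate exporter encoded by Slc16a3, in all tissues. Age and genotype cannot be told apart. Per the labels' protocols, mice heterozygous for the deletion, backcrossed to C57Bl/6N over 10 generations, were bred to give both groups as littermates. The ages given differ between the groups, so whether the animals on these arrays shared litters is not known here. The sample labels name the strain C57BL/6 for both groups, while the series text names C57Bl/6N for the MCT4KO group alone. Tissue of lumbar and caudal discs was pooled within each animal, so each value averages over disc levels.

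The nucleus pulposus descends from the notochord, the embryonic rod that patterns the vertebral column. FOXA1 and FOXA2 act in the notochord and are needed for disc formation, NOTO is a homeobox factor of the node and notochord, and PAX1 is a factor of the sclerotome, the surrounding mesenchyme that forms vertebrae and annulus. Nucleus pulposus cells are unusual among skeletal cells in keeping simple-epithelium keratins, and KRT8 (type II) pairs with KRT18 or KRT19 (type I) into filaments. CD24 and N-cadherin, the products of Cd24a and Cdh2, are used as surface markers of these cells.

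Krt8 and Krt18 lie 23873 bases apart on chromosome 15 in the RefSeq genes of GRCm38.p6, with 2 long noncoding RNA genes between them, and Krt7, the keratin that differed between the groups, lies 568904 bases before Krt8. The 250 bases before their starts are shown because these keratins are near each other in the genome and their values are set beside each other below, and those of Noto and Foxa1 because they alone among the members searched held forkhead letters. Each runs 5′ to 3′ in the direction of its gene, from RefSeq, and capitals mark any motif found: forkhead (TGTTTAC or TATTTAC or TGTTTGC), T-box (GGTGTGA), HIF (ACGTG), GC box (GGGCGG) or TATA box (TATAAA), on either strand. The stretches of Krt8 and Krt18 hold none and so have no capitals. The positions are chr15:102004343-102004592 (minus strand) for Krt8, chr15:102027966-102028215 (plus) for Krt18, chr15:101412153-101412402 (plus) for Krt7, chr6:85423636-85423885 (plus) for Noto and chr12:57546112-57546361 (minus) for Foxa1.
Krt8: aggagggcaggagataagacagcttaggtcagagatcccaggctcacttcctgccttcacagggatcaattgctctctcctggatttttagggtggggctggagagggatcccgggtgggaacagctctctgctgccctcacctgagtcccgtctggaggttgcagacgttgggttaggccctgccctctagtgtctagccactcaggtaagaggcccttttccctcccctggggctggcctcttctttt
Krt18: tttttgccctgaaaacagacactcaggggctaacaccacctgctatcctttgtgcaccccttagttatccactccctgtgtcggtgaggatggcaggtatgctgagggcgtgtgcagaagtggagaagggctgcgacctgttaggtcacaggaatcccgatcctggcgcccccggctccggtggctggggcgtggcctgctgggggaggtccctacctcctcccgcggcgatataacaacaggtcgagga
Krt7: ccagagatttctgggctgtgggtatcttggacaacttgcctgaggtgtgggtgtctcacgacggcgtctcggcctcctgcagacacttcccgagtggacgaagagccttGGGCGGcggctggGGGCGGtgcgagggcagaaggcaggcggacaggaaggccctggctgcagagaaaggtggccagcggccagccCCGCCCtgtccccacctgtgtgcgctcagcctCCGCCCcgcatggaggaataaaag
Noto: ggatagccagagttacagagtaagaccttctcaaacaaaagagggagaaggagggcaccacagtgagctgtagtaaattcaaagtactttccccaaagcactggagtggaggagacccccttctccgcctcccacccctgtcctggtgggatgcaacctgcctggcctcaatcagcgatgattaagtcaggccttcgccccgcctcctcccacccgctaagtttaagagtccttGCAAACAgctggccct
Foxa1: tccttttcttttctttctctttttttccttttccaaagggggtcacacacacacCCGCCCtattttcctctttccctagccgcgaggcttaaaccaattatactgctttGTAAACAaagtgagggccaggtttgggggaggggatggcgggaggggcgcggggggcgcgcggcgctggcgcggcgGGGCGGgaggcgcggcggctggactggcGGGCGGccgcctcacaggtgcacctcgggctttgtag

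Promoter windows from 250 bases before to 50 after the start were at hand for 7 members, Foxa1, Foxa2 (with 3 starts), Noto, Krt8, Krt18, Basp1 and Pax1. Forkhead letters were in the window of 2 of the 7, Noto at 16 to 10 bases before the start (distances -16 to -10) and Foxa1 at -141 to -135, both on the opposite strand. Of 32851 windows of all genes, 11.2% held such letters. The T-box letters were in 0 of the 7 (3.98% of all windows). HIF letters were in the window of Pax1 alone (19.6% of all windows), on both strands. GC boxes were in those of Basp1, Foxa1, Foxa2 and Pax1 (35.7%), with overlapping copies in Basp1, and TATA letters in those of Foxa2 and Krt8 (13.6%), where the Krt8 copies on both strands overlap each other at the start itself. These are matches of letters and not measured sites.

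Loss of the targeted gene was clear in every MCT4KO array: Slc16a3 read 13.35 to 13.61 on the deposited log2 scale in WT and 4.47 to 5.02 in MCT4KO. Values are given on that scale throughout, with the animals of each group in order of replicate number, and the median of the array's 5222 negative control features, 5.91 to 6.08 over the arrays, serves as background. A group is called at background for a gene where none of its arrays exceeded its own control median, as did both groups for 39.1% of all genes. The arrays' medians over all genes were 6.46 to 6.51. Of 27 measured other notochord and nucleus pulposus markers, 21 were above the control median on all arrays, among them Acan, the main disc proteoglycan (17.75 to 18.35), and Car3, a carbonic anhydrase (19.25 to 19.41), and 5 were at background in both groups (Car12, Tie1, Tek, Nog and Kdr). Brachyury (T) was not analysed here. In the summed level (log2 of the sum) of end plate and annulus markers, the neighbouring tissue, MCT4KO 1 was the highest animal and MCT4KO 3 the lowest. Such a sum follows the highest genes. For 8 end plate and cartilage markers it was 12.69 in MCT4KO 1, 11.29 and 10.05 in MCT4KO 2 and 3, and 11.26 to 11.80 in WT. For 11 annulus and tendon markers it was 18.12, 17.71 and 17.37 against 17.71 to 17.98 in WT. Dcn, the proteoglycan decorin, read 16.32, 12.17 and 8.89 in the MCT4KO animals and 11.60 to 14.60 in WT, and Col10a1, a collagen of hypertrophic cartilage, read 12.11, 9.02 and 7.18 against 7.02 to 8.50. Not all markers of these lists were high in MCT4KO 1. Ucma of the end plate list read 10.36, 10.81 and 9.51 against 10.88 to 11.61 in WT. Fmod of the annulus list read 17.60, 17.66 and 17.35 against 17.67 to 17.92. Of the 8 end plate markers, 4 were at background in both groups. Of the markers of other tissues, those of neutrophils and marrow had the largest median change of the marker lists (-1.61): 10 of 10 had changes below 0, 0 of them called, and their summed level was 12.45, 15.40, 10.29 and 10.80 in the WT animals against 11.53, 9.37 and 8.79 in the knockouts. The groups did not overlap for 4 of the 10, against 12% of all genes. In MCT4KO 1 the highest of the 10 was Lcn2, at 11.30, while S100a8 read 5.56 there and 7.71 to 13.04 in WT.

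No identity gene passed the test between genotypes. In limma's test over all genes 0 of 10 had an adjusted p under 0.05 and 0 of 10 an unadjusted p under 0.05, against 0.59% and 12.7% of all genes. Log2 changes (MCT4KO minus WT) ran from -0.19 for Krt18 to 0.32 for Noto, 6 above 0 and 4 below, with a median of 0.096, where all genes had a median of 0.017, with 53% above 0 and 47% below. Standard errors were 0.12 to 0.40, and adjusted p-values 0.46 to 0.99. The values of the groups did not overlap for 1 of the 10, Cd24a, as for 12% of all genes. A p over the threshold does not show that levels were equal, so each change of a gene above background is given with its 95% interval.

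**Figure D1:**
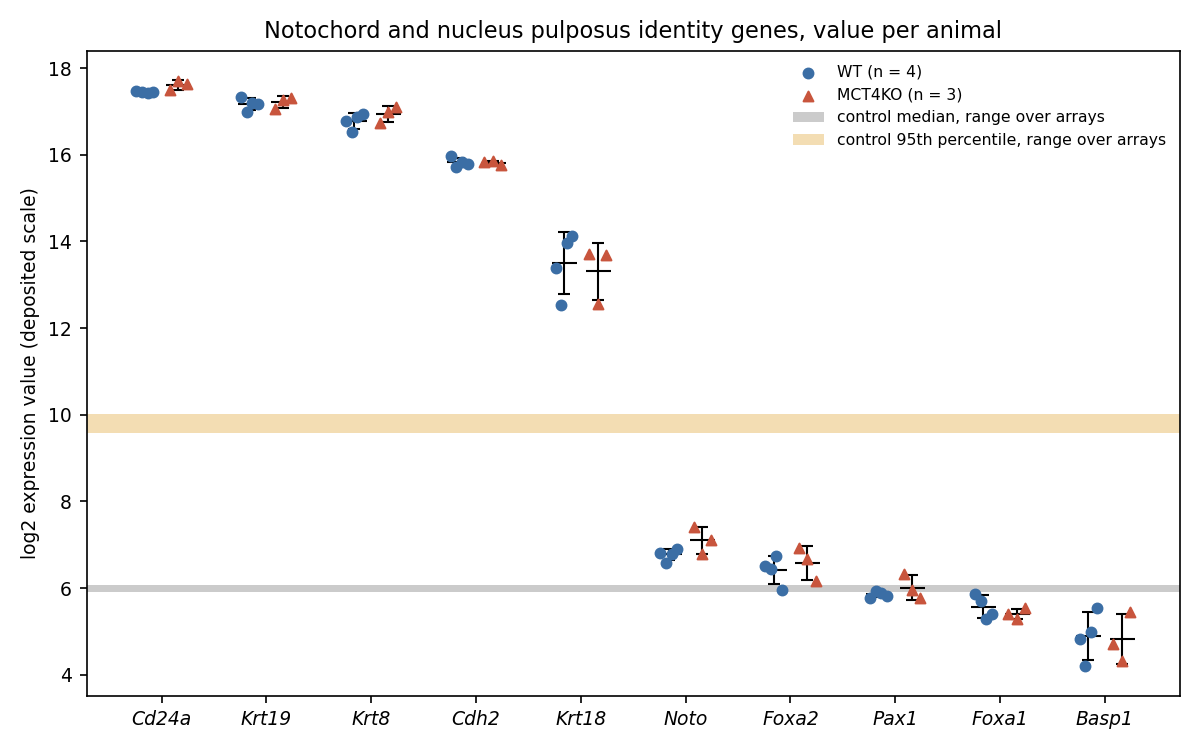
Log2 expression value (deposited scale, vertical axis) of each identity gene in each of 4 WT (circles) and 3 MCT4KO animals (triangles), with mean and SD; the grey band is the range of the arrays' control medians (5.91 to 6.08) and the tan band that of their 95th percentiles (9.59 to 10.03). Krt8, Krt18, Krt19, Cd24a and Cdh2 sit above both bands in all 7 animals, and the other 5 genes lie between 4.20 and 7.40.

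The cytokeratins were strongly detected in every animal, and none passed the test. Krt19 read 17.32, 17.00, 17.19 and 17.18 in the WT animals against 17.06, 17.27 and 17.31 in the knockouts. The groups overlapped fully, with means of 17.17 ± 0.13 (SD, n = 4) and 17.21 ± 0.14 (SD, n = 3). The change was 0.04 ± 0.14 (SE; limma adjusted p = 0.93; exact permutation p = 0.69, two-sided), with an interval of -0.27 to 0.35, or 0.831-fold to 1.27-fold. Krt8, its type II partner, read 16.78, 16.52, 16.88 and 16.94 in WT and 16.73, 16.98 and 17.09 in MCT4KO. MCT4KO 2 and 3 lay above every WT animal and MCT4KO 1 within the WT range. Its change of 0.15 ± 0.15 (SE; adjusted p = 0.71; exact permutation p = 0.37) had an interval of -0.19 to 0.50, and was 0.066 without WT 2.

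Krt18, the other type I partner of KRT8, was the most variable member. Its values were 13.39, 12.53, 13.97 and 14.12 in the WT animals against 13.71, 12.56 and 13.68 in the knockouts. The low animals were WT 2 and MCT4KO 2, so the spread ran within both groups and not between them. The labels do not say whether animals of the same number share more than that number. With the replicate number as a block, the Krt18 change was 0.02 ± 0.18 (SE; limma adjusted p = 0.98). Means were 13.50 ± 0.72 (SD, n = 4) and 13.32 ± 0.66 (SD, n = 3), and without the block the change was -0.19 ± 0.40 (SE; adjusted p = 0.88; exact permutation p = 0.71). The interval, -1.08 to 0.71 or 0.472-fold to 1.63-fold, is the widest of the 10. The change was -0.51 without WT 2, and its sign turned without MCT4KO 2 (0.19) and without WT 4 (0.02). The pooled within-group SD of Krt18, 0.697, lay at the 98.7th percentile of all genes, against the 35.9th for Krt8 (0.186) and the 15.7th for Krt19 (0.135). The 3 genes whose profiles over the 7 arrays were nearest to that of Krt18, by root mean square difference after centring each gene on its mean, were Foxn3 (0.179), Hspa4l (0.209) and Slc7a1 (0.278), a forkhead factor, a heat shock protein and a cationic amino acid transporter, out of 3378 genes spanning at least 1 log2 unit. Each was lowest in WT 2 and MCT4KO 2, which follows from the choice by likeness and is no separate result: Foxn3 read 8.16 and 8.22 there and 8.97 to 9.36 in the other animals.

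**Figure D2:**
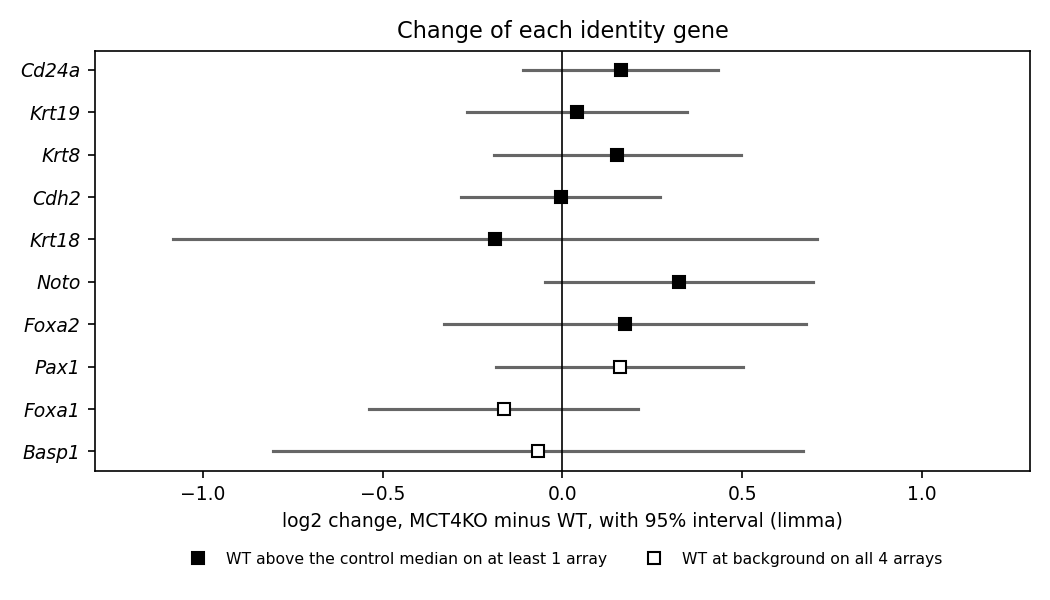
Log2 change (MCT4KO minus WT, horizontal axis) of each identity gene from limma, with its 95% interval; open squares are genes at background in all 4 WT arrays. Every interval includes 0, from the narrow ones of Cdh2, Cd24a and Krt19 to that of Krt18 (-1.08 to 0.71).

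The surface markers were strongly detected and among the steadiest genes on the array. Cd24a encodes a small GPI-anchored sialoglycoprotein that is also made by several blood cell types. It read 17.46, 17.46, 17.43 and 17.46 in the WT animals against 17.49, 17.70 and 17.64 in the knockouts, so each MCT4KO animal lay above each WT animal. Means were 17.45 ± 0.015 (SD, n = 4) and 17.61 ± 0.11 (SD, n = 3). The change was small, 0.16 ± 0.12 (SE; interval -0.11 to 0.43, or 0.927-fold to 1.35-fold), and did not pass over all genes (limma adjusted p = 0.60). Its exact permutation p was 0.0286, the smallest that 35 splits of 4 and 3 animals allow, unadjusted and 1 of 10 such tests. Without WT 1 and WT 2, the WT animals with the highest neutrophil markers, the change was 0.17 (adjusted p = 0.77). This pair was chosen after the data were seen, and the part of blood cells in the Cd24a values was not tested. Cd24a had a pooled SD of 0.070, at the 1.77th percentile of all genes, and Cdh2 of 0.082, at the 3.18th.

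Cdh2, N-cadherin, joins neighbouring nucleus pulposus cells through catenins. It read 15.96, 15.73, 15.83 and 15.78 in the WT animals against 15.83, 15.85 and 15.77 in the knockouts, and the MCT4KO values lay inside the WT range. This was the smallest change of the 10, -0.005 ± 0.12 (SE; adjusted p = 0.99; exact permutation p = 0.89), with an interval of -0.28 to 0.27, or 0.823-fold to 1.21-fold. Its sign turned without MCT4KO 3 (0.02), without WT 1 (0.04) and under quantile normalization (0.02). Cd24a, Krt19 and Krt8 values lie near the upper end of the deposited scale, whose highest gene value per array was 19.25 to 19.41, and whether probes still respond in proportion there was not tested.

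The transcription factors gave little or no signal above background. Noto was above the control median on all 7 arrays but within the spread of the controls, at their 62.2nd to 75.5th percentile. Its values were 6.82, 6.59, 6.79 and 6.91 in the WT animals against 7.40, 6.79 and 7.11 in the knockouts. MCT4KO 1 and 3 were above every WT animal and MCT4KO 2 was not. Without MCT4KO 1, the animal with the highest summed cartilage and annulus marker levels, the change was 0.17. Noto had the largest change and the smallest p of the 10, 0.32 ± 0.17 (SE; unadjusted p = 0.082; limma adjusted p = 0.46; exact permutation p = 0.14), with an interval of -0.05 to 0.70. Foxa2 read 6.52, 6.44, 6.73 and 5.96 in WT and 6.93, 6.66 and 6.17 in MCT4KO, above the control median on 6 of the 7 arrays and at the 47.4th to 67.8th percentile of controls. WT 4 and MCT4KO 3 were the lowest of their groups and MCT4KO 1 the highest animal of all, and the change was 0.17 ± 0.22 (SE; adjusted p = 0.78; exact permutation p = 0.57; interval -0.33 to 0.68). It was 0.002 without MCT4KO 1 and 0.38 without MCT4KO 3. The part of the cartilage and annulus markers in the Noto and Foxa2 values was not tested.

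Foxa1 was at background in both groups, at 5.87, 5.70, 5.30 and 5.39 in the WT animals against 5.40, 5.28 and 5.53 in the knockouts. With no value above its control median, its change enters the counts and the plot of changes but is not read as a fold (limma adjusted p = 0.71). Pax1 was at background in all WT arrays (5.78 to 5.93) and above the control median in 1 MCT4KO animal, MCT4KO 1 at 6.32, with 5.95 and 5.77 in MCT4KO 2 and 3 (adjusted p = 0.70), and its change was 0.006 without MCT4KO 1. Basp1, a growth-cone and membrane protein often grouped with GAP43 and MARCKS, was likewise at background in both groups, at 4.84, 4.20, 4.98 and 5.54 in WT and 4.71, 4.31 and 5.45 in MCT4KO (adjusted p = 0.95). The lowest Basp1 values were in WT 2 and MCT4KO 2, and its pooled SD stood at the 97.4th percentile of all genes. With every value at background, this order and spread are not read as variation of Basp1 RNA. A reading at background bounds the signal of these probes and does not show that the RNA was absent, so the tissue label could be checked with Krt8, Krt18, Krt19, Cd24a and Cdh2 but not with Foxa1, Pax1 or Basp1.

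For the members other than Krt18 that were above the control median on all arrays of a group, the nearest profile came from Pkd1 for Noto (0.086), P4ha1 for Krt8 (0.136), Blm for Foxa2 (0.153), Vwa5a for Krt19 (0.218), Nppb for Cd24a (0.222) and Itgb1bp2 for Cdh2 (0.235). Next came Efcab6 and Spata3 for Noto (0.105 and 0.119), B4galnt2 and Vwa5a for Krt8 (0.141 and 0.157), Tango6 and Fa2h for Foxa2 (0.162 and 0.165), Mrps25 and Rerg for Krt19 (0.219 and 0.221), Cd99 and Grhl3 for Cd24a (0.222 and 0.226), and Pax5 and Rdm1 for Cdh2 (0.246 and 0.251). These members span under 1 log2 unit, so a match within the genes spanning at least 1 is loose. Pkd1 shared the order of Noto at its top, with 10.14 in MCT4KO 1 and 9.65 in MCT4KO 3 against 9.09 to 9.53 in WT. P4ha1, a collagen prolyl hydroxylase subunit, read 13.62 to 14.31 in WT and 13.89, 14.27 and 14.62 in the knockouts.

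A different keratin did change. Krt7, a type II simple-epithelium keratin, fell in MCT4KO: it read 12.97, 12.32, 12.84 and 12.93 in the WT animals against 11.66, 11.57 and 11.82 in the knockouts. Every MCT4KO animal lay below every WT animal, with means of 12.76 ± 0.30 (SD, n = 4) and 11.68 ± 0.12 (SD, n = 3). The change was -1.08 ± 0.18 (SE; limma adjusted p = 0.039), with an interval of -1.48 to -0.68. Krt7 was 1 of 16 measured other keratins and the 1 called, where 0.472% of all genes were called lower. Its call ended in 6 of the 7 fits that left out an animal, all except that without WT 2 (-1.23, adjusted p = 0.027). Those 6 gave changes of -1.01 to -1.15 and adjusted p-values of 0.085 to 0.12. It also ended with the replicate number as a block (-1.03, adjusted p = 0.11) and with values raised to the control median (adjusted p = 0.083). In whole tissue, fewer cells of a type and less RNA per cell cannot be told apart.

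Krt20, a type I keratin of gut and urothelium, had a larger and more variable difference that did not pass the test: 11.16, 9.95, 9.36 and 10.07 in the WT animals against 7.90, 8.89 and 7.38 in the knockouts, a change of -2.08 ± 0.43 (SE; adjusted p = 0.075). Its groups did not overlap. Krt80, named after its values were seen, read 11.98 to 13.20 in WT and 12.46 to 13.31 in MCT4KO (0.34 ± 0.29; adjusted p = 0.65), lowest in WT 2 and MCT4KO 2 as for Krt18. Krt2, an epidermal keratin with the third smallest p of the list, was at background in both groups (adjusted p = 0.35). The list had 11 members above 0 and 5 below with a median of 0.06, but 11 of 16 were at background in both groups. Over the 4 keratins left by the filter on low values (Krt7, Krt20, Krt80 and Krt12) the median was -0.51.

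Neither group exceeded background for 5 of 6 epidermal markers, and 0 of 6 were above the control median on all arrays. Their summed level was 7.32 to 7.56 in WT and 7.57 to 7.82 in MCT4KO. Osteoblast markers were at background in both groups for 6 of 7 genes, with Ibsp, bone sialoprotein, above it, and their summed level was 10.00 to 11.10 in WT and 8.30 to 9.95 in MCT4KO. The part of these markers, and of the neutrophil markers given above, in the Krt7 difference was not tested. Without WT 1 and WT 2, which read highest for neutrophil markers, Krt7 differed by -1.20 (adjusted p = 0.060).

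**Figure D3:**
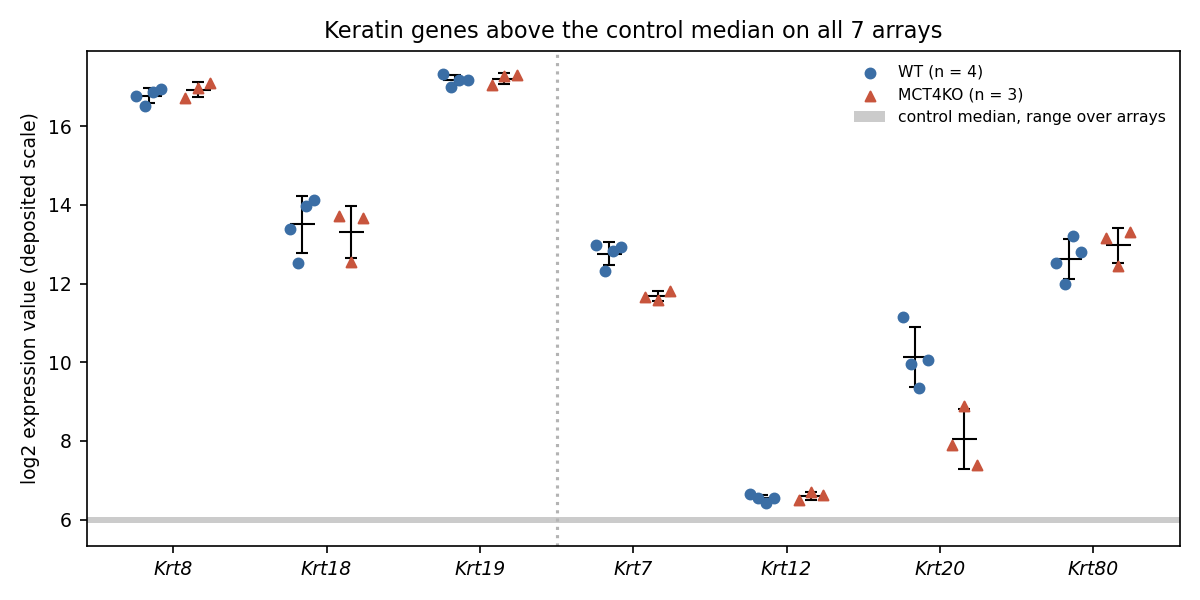
Log2 expression value (deposited scale, vertical axis) of the 7 keratin genes above the control median on all 7 arrays, in 4 WT (circles) and 3 MCT4KO animals (triangles), with mean and SD; the identity genes are left of the dotted line. The groups separate for Krt7 and Krt20 and overlap for Krt8, Krt18, Krt19, Krt12 and Krt80.

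Among other notochord and nucleus pulposus markers, 0 of 27 measured genes passed limma's test over all genes, while 4 had an unadjusted p under 0.05 with a higher level and 2 with a lower one (5.76% and 6.9% of all genes). Their median was 0.06, and -0.01 over the 22 left by the filter on low values. Col2a1, the fibrillar collagen of cartilage and disc, read 8.29, 8.10, 7.58 and 8.30 in the WT animals against 10.08, 9.22 and 8.85 in the knockouts. Each MCT4KO animal was above each WT animal, and the change was 1.32 ± 0.29 (SE; adjusted p = 0.088) and 0.97 without MCT4KO 1. All 7 arrays were above the control median, but the Col2a1 values lay at the 78.4th to 95.1st percentile of the negative controls. In the MCT4KO animals the order of Col2a1 was also that of the summed cartilage and annulus marker levels, from MCT4KO 1, the highest, to MCT4KO 3, the lowest. The sums of MCT4KO 3 (10.05 and 17.37) lay below those of every WT animal (11.26 to 11.80 and 17.71 to 17.98), while its Col2a1 lay above every WT animal. The part of these markers in the Col2a1 difference was not tested. Ptn, the heparin-binding growth factor pleiotrophin, read 15.85 to 16.06 in WT and 15.28 to 15.58 in MCT4KO (-0.55 ± 0.13; adjusted p = 0.12), and passed with a trended, robust variance (adjusted p = 0.048). Car9, a hypoxia-responsive carbonic anhydrase, read 11.40 to 11.89 in WT and 12.04 to 12.36 in MCT4KO (0.58 ± 0.16; adjusted p = 0.17). Shh, the notochord signal that lies downstream of FOXA2, read 9.65, 8.29, 8.23 and 8.35 in the WT animals against 8.50, 8.36 and 8.02 in the knockouts, and WT 1 alone stood high (adjusted p = 0.69). Sox9, the factor that drives matrix genes, read 16.47 to 17.23 in WT and 16.98 to 17.36 in MCT4KO (adjusted p = 0.52).

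Genes of keratin-linked junctions, and other cadherins and catenins, likewise gave no call. Plectin (Plec) and beta-catenin (Ctnnb1) were not analysed here. Of 17 measured junction and plakin genes, 0 passed. An unadjusted limma p was under 0.05 for 2 upward and 1 downward (5.76% and 6.9% of all genes). Their median was 0.03, and -0.12 over the 9 left by the filter on low values. Dsp, desmoplakin, which ties keratin filaments to desmosomes, read 14.45 to 15.05 in WT and 14.90 to 15.16 in MCT4KO (0.17 ± 0.17; adjusted p = 0.69). Pkp4, an armadillo-repeat junction protein, read 11.42 to 11.68 in WT and 10.70 to 11.10 in MCT4KO, without overlap (-0.58 ± 0.14; adjusted p = 0.14), while Epcam and Cldn7 were at background in both groups. Of 16 other cadherins and catenins, 0 passed, and 9 were at background in both groups. An unadjusted limma p was under 0.05 for 2 upward and 3 downward (5.76% and 6.9% of all genes). Their median was -0.04, and -0.25 over the 7 left by that filter. Cdh13, the GPI-anchored T-cadherin, read 12.07 to 12.52 in WT and 12.65 to 13.18 in MCT4KO (0.59 ± 0.18; adjusted p = 0.22). Cdh4, R-cadherin, read 10.34, 8.79, 9.23 and 8.48 in the WT animals against 7.85, 7.88 and 8.24 in the knockouts (-1.22 ± 0.37; adjusted p = 0.23). Ctnna2, the neural alpha-catenin, read 7.33, 6.47, 6.58 and 6.59 in the WT animals against 5.43, 5.31 and 6.47 in the knockouts (adjusted p = 0.22), so the groups touched at MCT4KO 3. MCT4KO 1 and MCT4KO 2 were below their own control medians for Ctnna2. Its change was -1.01, and -0.60 with values raised to the control median. Ctnna1, the widespread alpha-catenin, had -0.25 ± 0.14 (adjusted p = 0.48).

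Factors near the members by lineage were mostly not measurable. Of 13 other forkhead A and notochord factors, 10 were at background in both groups, among them Foxa3, the third FOXA gene, and the genes of smallest p, Sox18, Onecut2 and Eomes. Of the 13, 0 passed, and an unadjusted limma p was under 0.05 for 1, upward (5.76% of all genes). Lmx1a, a LIM-homeobox factor of roof plate and midbrain, was the clear exception in level, at 11.30 to 12.39 in WT and 11.49 to 12.34 in MCT4KO (-0.11 ± 0.28; adjusted p = 0.90); it was named after its values were seen. Of 13 sclerotome and annulus factors, 10 were at background in both groups, among them Pax9, the closest relative of Pax1, and Nkx3-2, Ripply2 and Tbx18. Of the 13, 0 passed under the adjusted or the unadjusted p (0.59% and 12.7% of all genes). In the Basp1 family Gap43 and Marcksl1 were at background and Marcks, an actin-regulating substrate of protein kinase C, read 9.30 to 9.70 in WT and 9.27 to 9.70 in MCT4KO (-0.08 ± 0.16; adjusted p = 0.86). Of 6 measured partners of CD24, 4 were at background in both groups, among them Siglecg and Selp, and 0 passed under either p (0.59% and 12.7% of all genes). Fyn, a Src-family kinase, read 7.67 to 7.93 in WT and 7.71 to 8.14 in MCT4KO (0.09 ± 0.14; adjusted p = 0.82).

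**Figure D4:**
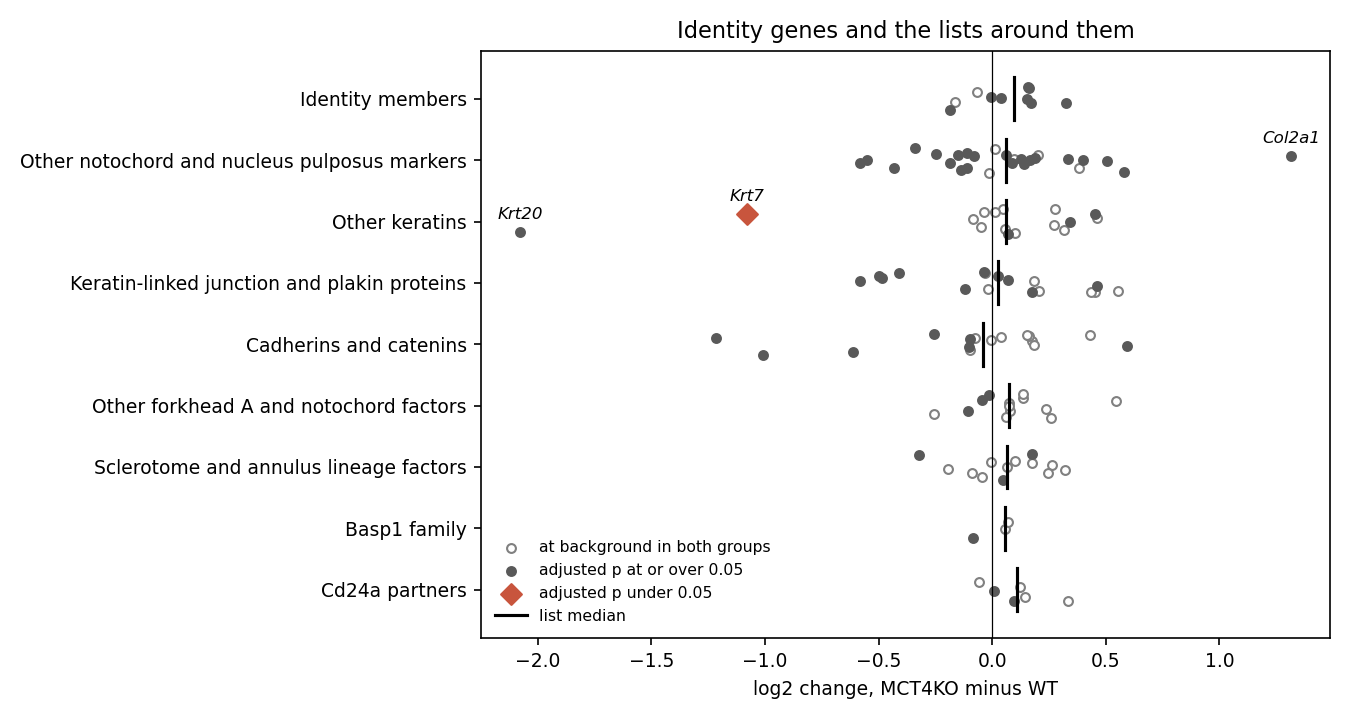
Log2 change (MCT4KO minus WT, horizontal axis) of each measured gene of the identity list and of the 8 lists around it; open circles are genes at background in both groups, the diamond has a limma adjusted p under 0.05, and bars are list medians. The identity genes lie between -0.19 and 0.32, and Krt7 is the 1 gene called.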

How the data were processed

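RNA of nucleus pulposus from 7 mice (4 WT, 3 MCT4KO) was hybridised to Affymetrix arrays. Each deposited array column holds log2 expression, a scale read from its range of values. The submitters' processing notes name Affymetrix Expression Console 1.4.1. For the authors' background correction, normalization, probe summary and genome build, nothing is given in the sources used here. Of 28846 features, 19572 carried 1 gene symbol, and the feature with the highest mean was kept for the 55 genes with several, leaving 19505 genes. They were fitted in limma 3.58.1 (R 4.3.3; lmFit, eBayes; 5 residual and 4.663 prior degrees of freedom), with Benjamini-Hochberg adjustment over all genes and a threshold of 0.05; the fit was tested on simulated data. Exact two-sided permutation tests used all 35 splits of the animals. Arrays give no read depth: the number of animals limits precision, and the median standard error was 0.167. The members and lists were chosen with earlier results of these data known. Named genes were all members, called genes and the 3 of smallest p in each of 8 lists, and the 3 nearest profiles per measured member. Acan, Car3, Car12, Tie1, Tek, Nog, Kdr, Dcn, Col10a1, Ucma, Fmod, Lcn2, S100a8, Ibsp, Shh, Sox9, Dsp, Ctnna1, Foxa3, Pax9, Krt12, Krt80 and Lmx1a were named outside this rule, after their values were seen. List genes absent from the annotation used were not analysed here. Alternatives were other normalizations, filters, feature rules and variance models, values raised to the control median, each animal left out, and the replicate number as a block. Animals of the same number were not treated as pairs in the main fit: their deviations from the group means had correlations of -0.13, 0.02 and 0.05 across genes.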

Additional observations from a re-analysis of the deposited data

Results flagged for a closer look

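In 3 of the 35 genes checked, 1 WT array stood apart from the other WT arrays by more than a gap test for 4 values allows; chance alone gives about 1 in 20. Cd24a read 17.43 in WT 3 against 17.456 to 17.459 in the other WT animals, a gap that is large only beside their narrow range. Ctnna2 read 7.33 in WT 1 against 6.47 to 6.59. Gap43, at background in both groups, read 4.74 in WT 1 against 5.13 to 5.16.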

How the results depend on the processing

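No identity gene was called in any of the 15 alternatives, where their lowest adjusted p was 0.26, and their median change stayed between 0.004 and 0.15. Foxa2, Noto, Krt8, Cd24a and Pax1 kept their sign in all that gave a value, though without single animals their changes ran from 0.002 to 0.38, 0.17 to 0.48, 0.066 to 0.26, 0.12 to 0.22 and 0.006 to 0.28, and the filter on low values left 7 of the 10 members. The count over all genes, 115, was 164 among the 10787 genes left by the filter on low values and 139 with a trended, robust variance. It was 79 with quantile normalization, 15 to 64 without single animals, 16 without WT 1 and WT 2 (chosen after seeing the data), 26 with values raised to the control median and 6 with the replicate block, in which WT 4 has no partner. The cause was not tested. With the replicate block the signs of Basp1 (0.15) and Krt18 (0.0197) turned. Without WT 1 and WT 2 those of Cdh2 (0.0154), Foxa1 (0.057) and Gap43 (-0.0493) did, and under quantile normalization those of Cdh2 (0.0208), Gap43 (-0.0278), Marcks (0.0136) and Marcksl1 (-0.00566). Ranges without single animals crossed 0 for Basp1 (-0.38 to 0.19), Cdh2 (-0.0378 to 0.0409), Krt18 (-0.51 to 0.19), Krt19 (-0.0194 to 0.12), Fyn (-0.0169 to 0.20), Gap43 (-0.0605 to 0.27) and Marcksl1 (-0.0678 to 0.23). With values raised to the control median, Cldn7, Eomes, Epcam, Gap43, Krt2, Marcksl1, Nkx3-2, Onecut2, Ripply2, Selp, Siglecg, Sox18 and Tbx18 read -0.0079 by construction, which is how far the mean control median of MCT4KO lies from that of WT. The block ended the call of Krt7 and changed no other call among the genes named. The count of members with forkhead letters was 2 also in the 250 bases before the start alone. Probes at background limit Foxa1, Pax1 and Basp1.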
